A study of Rattus norvegicus with 18 samples.

Results

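Galanin, neurotensin, VIP, PACAP, melanin-concentrating hormone and orexin are neuropeptides with known roles in feeding, arousal and autonomic control. Followed here are 10 of the 23188 genes on the array: the precursors Gal, Nts, Vip, Adcyap1 (PACAP), Pmch (melanin-concentrating hormone) and Hcrt (orexin), and the receptors Galr1, Ntsr1, Ntsr2 and Adcyap1r1. They were chosen by gene symbol, and each symbol had 1 probe set. RNA came from bilateral 1 x 3 mm tissue punches of the arcuate nucleus (ARC), the paraventricular nucleus (PVN) and the nucleus tractus solitarius (NTS) of female Sprague-Dawley rats aged 90 days that had been ovariectomized (OVX). EB-treated rats received 10 µg of estradiol benzoate (EB) in 0.1 mL of oil on day 1 and again on day 2, and Oil-treated rats received 0.1 mL of oil alone on the same days. Tissue was collected on day 4. Each region has 3 EB and 3 Oil samples, which makes 18 Rat Clariom S arrays. The methods give 3 rats per treatment, so the regions share rats, although the labels do not tie an array to a rat. All rats were OVX, so the Oil groups stand for the absence of ovarian hormones and not for an intact animal, and 1 dose level of EB was used. A punch can hold tissue beside the nucleus it is named for. In bulk tissue, fewer cells of a type and less RNA per cell cannot be told apart.

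Neuropeptides are cut from larger precursors, stored in dense-core vesicles and act on G protein-coupled receptors, often at a distance from the terminal that released them. Galanin is made in the ARC, the PVN, the dorsomedial nucleus and brainstem noradrenergic neurons, and favours fat intake and sleep. Neurotensin, made in the lateral hypothalamus and the PVN among other sites, reduces feeding and modulates midbrain dopamine neurons, many of which carry Ntsr1. VIP is the peptide of the ventral suprachiasmatic nucleus, and PACAP, its close relative, is abundant in the ventromedial nucleus and PVN and acts through the receptor encoded by Adcyap1r1. Melanin-concentrating hormone (MCH) and orexin come from separate sets of neurons of the lateral hypothalamus and zona incerta, dorsal and lateral to the ARC, and both sets project throughout the brain, including to the NTS. Cell bodies of either set are not found in the NTS.

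Several arrays did not match the markers of the nucleus on their label. The PVN peptides Oxt and Avp were at log2 signals of 6.97 and 7.11 in PVN Oil 1 and of 6.92 and 6.80 in PVN Oil 3, whereas PVN Oil 2 had 14.87 and 10.46, and the 3 PVN EB arrays ranged from 12.36 to 16.10 for Oxt. The same arrays, PVN Oil 1 and PVN Oil 3, had a signal of 10.41 and 10.06 for Foxa2 and of 10.01 and 9.75 for Slc6a3. Both genes come from a list for midbrain dopamine and mammillary neurons. They were the only 2 of its 5 measured genes (of 7 listed) above background in those arrays. In the ARC, Slc6a3 reached 14.95 in EB 2 and 12.62 in EB 3, against 8.56 to 8.85 in the other 4 ARC arrays, and the ARC peptide Pomc was at 5.38 in EB 2. ARC Oil 1 had 14.52 for Oxt and 14.12 for Avp. Fezf1, a gene of the ventromedial nucleus, was at 12.10 in PVN EB 3, and NTS Oil 3 had the lowest Gcg of its region, 7.25. The mean of the 3 measured hindbrain Hox genes (of 6 listed) was 8.02 in NTS Oil 3. It ranged from 5.31 to 5.59 over ARC arrays and from 5.15 to 5.48 over PVN arrays. No label of the series names midbrain. The groups here follow the labels. Whether punches beside the nucleus or exchanged labels gave the signals of these arrays was not tested, which bears on EB against Oil in the ARC, the PVN and, through NTS Oil 3, the NTS. Each array is therefore shown by itself below. Over the 18 arrays, the median of the background probe sets lay between 6.74 and 7.60, and a signal under that of its own array is called below background.

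The regions differed more than the treatments did. ARC minus NTS gave 3 of the 10 genes as higher at an adjusted p under 0.05 and a fold change of 2 or more (Pmch, Hcrt and Gal), where 7.13% of all genes passed, 4.15% as higher. For PVN minus NTS, Pmch, Hcrt, Nts and Gal, 4 of 10, were higher, where 5.55% of all genes passed, 2.6% as higher. In ARC minus PVN, Nts was lower and the other 9 did not pass, where 2.23% of all genes passed, 0.349% as lower. The numbers of genes higher and lower depended on scaling: in ARC minus NTS they were 963 and 691 on the deposited values, 740 and 907 after centring each array on its median, and 808 and 823 after quantile normalization, and in ARC minus PVN they were 435 and 81, 295 and 169, and 333 and 108. The regional calls of Pmch, Hcrt, Nts and Gal were the same on all of these scales.

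EB against Oil gave few calls at an unadjusted p of 0.05 or less with a fold change of 2 or more. None of the 10 genes passed in the ARC, where 0.479% of all genes did, and none in the NTS, where 0.0776% did. In the PVN, 2 passed, Ntsr1 and Vip, both lower with EB, where 0.332% of all genes passed and 0.181% were lower. After Benjamini-Hochberg adjustment over 23188 genes, limma called none of the 10 genes in any region. Over all genes it called 0 in the ARC and PVN and 1 in the NTS (0.00431%), while 5.66%, 6.39% and 4.65% of genes had an unadjusted p under 0.05 in the ARC, PVN and NTS in turn. On the log2 scale, the median EB minus Oil difference of the 10 genes was 0.13 for the ARC, -0.32 for the PVN and 0.58 for the NTS, beside medians over all genes of 0.01, -0.00 and -0.01. The NTS median leans on NTS Oil 3, the lowest NTS array for 7 of the 10 genes. Without that array, the NTS differences of these 7 lay between -0.39 and 0.61. Gal, Vip and Hcrt were below background in both NTS groups. With 3 samples against 3, the exact two-sided permutation test cannot go below p = 0.1.

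**Figure D1:**
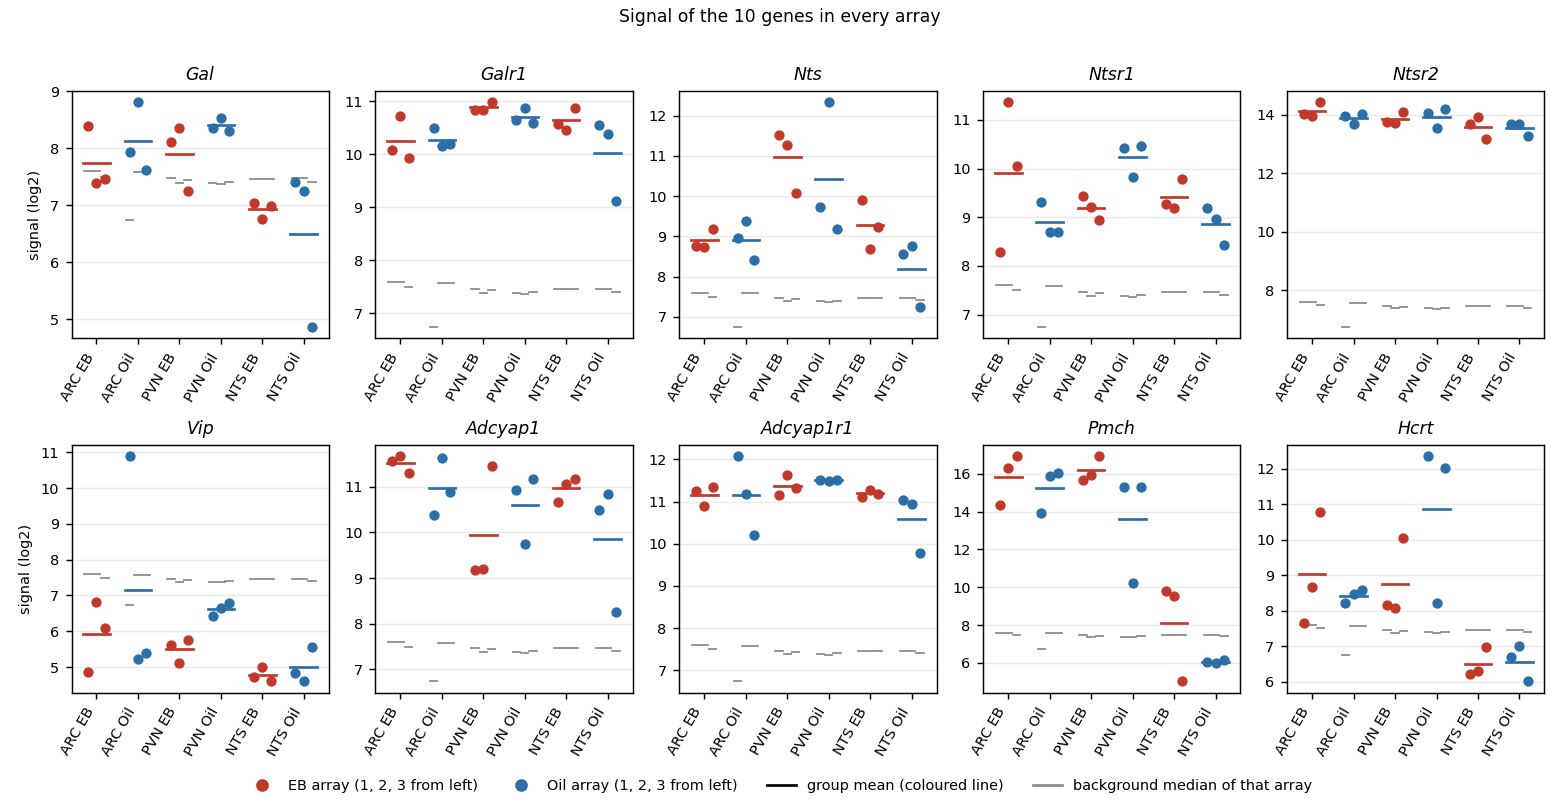
Log2 signal of each of the 10 genes (vertical axes, scaled per gene) in the 6 groups (horizontal axis, EB red and Oil blue), with replicates 1 to 3 from left to right, the group mean as a coloured line and the background median of each array as a grey line. Pmch lies at 10.22 or above in every ARC and PVN array and at 9.81 or below in every NTS array, and the lowest NTS value of Gal, Galr1, Nts, Ntsr1, Adcyap1, Adcyap1r1 and Hcrt belongs to NTS Oil 3.

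Pmch, the precursor of MCH, showed the widest regional contrast of the 10 genes. In the ARC its log2 signal was 14.32, 16.28 and 16.93 with EB, against 13.93, 15.85 and 16.01 with Oil. In the PVN it was 15.67, 15.93 and 16.93 with EB, against 15.31, 10.22 and 15.32 with Oil. In the NTS it was 9.81, 9.52 and 5.03 with EB, against 6.06, 6.01 and 6.14 with Oil. All 12 hypothalamic arrays thus lay above all 6 NTS arrays, a separation that 20.3% of all genes showed between ARC and NTS and 17.7% between PVN and NTS, and only PVN Oil 2 came near the NTS range. The difference was 8.46 (SE 0.92, limma adjusted p = 6.13e-06) for ARC minus NTS and 7.80 (SE 0.92, adjusted p = 1.56e-05) for PVN minus NTS. ARC and PVN did not differ beyond their spread (0.65, 95% interval -1.30 to 2.60).

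In the main fits, with all arrays kept, Pmch was called higher with EB only when the 3 regions were averaged (1.73, SE 0.75, unadjusted p = 0.0351, adjusted p = 0.605). That test called 0.0431% of all genes and 0.0216% as higher. The call was lost without any 1 of ARC EB 2, ARC EB 3, ARC Oil 1, PVN EB 3, PVN Oil 2, NTS EB 1, NTS EB 2 and NTS Oil 2, with averages from 1.16 to 1.72, and with an intensity trend and robust prior (unadjusted p = 0.0588). That fit takes the 18 arrays as independent. With the same-numbered arrays of a treatment averaged over regions first, as if a number marked 1 rat, the difference of Pmch had an SE of 0.44 (unadjusted p = 0.00516, adjusted p = 0.912) over 3 EB and 3 Oil averages. Within regions, EB minus Oil was 0.58 for the ARC (SE 0.77), 2.56 for the PVN (SE 1.27, unadjusted p = 0.0805) and 2.05 for the NTS (SE 1.18), and none passed. In the PVN the 3 EB arrays lay above the 3 Oil arrays, and the Oil arrays at 15.31 and 15.32 were close to the lowest EB array, at 15.67. The difference came to 0.86 without PVN Oil 2, and to 3.41 without PVN Oil 1 or without PVN Oil 3 (unadjusted p = 0.0413 and 0.0407). PVN Oil 2 also had the lowest PVN signal of Cartpt, 11.99 against 14.36 to 16.48 in the other 5 PVN arrays; Cartpt, a gene chosen here after its values were seen, encodes a peptide that many MCH neurons also make. The mean of 4 lateral hypothalamus genes (Tacr3, Lhx9, Pdyn and Nptx2) was 8.22 in PVN Oil 2 and between 8.20 and 8.72 over the 6 PVN arrays, and the part of that tissue in the Pmch signal was not tested.

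In the NTS, EB 1 and EB 2 were above background for Pmch and the other 4 arrays were not. Those same arrays, NTS EB 1 and NTS EB 2, had 8.49 and 11.45 for the choroid plexus gene Ttr, against 15.29 to 17.91 in the other 4 NTS arrays, and 4.69 and 4.93 for Kl, against 6.04 to 13.18. Without NTS EB 3, the EB minus Oil difference of Pmch in the NTS was 3.59 (adjusted p = 0.0024), a fit that leaves out the EB array at 5.03 and so rests on 2 EB arrays. The part of choroid plexus in these values was not tested.

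Hcrt, the precursor of orexin, was also higher in both hypothalamic regions than in the NTS, with a smaller contrast than Pmch. Its log2 signal in the ARC was 7.64, 8.66 and 10.77 with EB, against 8.23, 8.46 and 8.58 with Oil. In the PVN it was 8.15, 8.07 and 10.06 with EB, against 12.36, 8.23 and 12.03 with Oil. In the NTS it was 6.23, 6.29 and 6.99 with EB, against 6.69, 7.0 and 6.01 with Oil. Every NTS array was below background and below every hypothalamic array. With the background median in place of the NTS signal, Hcrt was at least 2.41-fold higher in the ARC than in the NTS (fitted difference 2.19, SE 0.64, adjusted p = 0.0123) and at least 5.14-fold higher in the PVN than in the NTS (3.28, SE 0.64, adjusted p = 0.00103). With values under background raised to it in every array, ARC minus NTS was 1.27 (adjusted p = 0.161) and did not pass. ARC minus PVN was -1.09 (95% interval -2.46 to 0.27) and did not pass, except without PVN Oil 2 (-1.75, adjusted p = 0.0204). On the arrays of 1 treatment, ARC minus NTS was 2.52 with EB (adjusted p = 0.0499) and 1.86 with Oil (adjusted p = 0.143), and PVN minus NTS was 2.26 with EB (adjusted p = 0.0737) and 4.31 with Oil (adjusted p = 0.0118).

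Within the PVN, Hcrt was 2.12 lower on the log2 scale with EB (log2 difference -2.12, SE 1.08, unadjusted p = 0.087, adjusted p = 0.806), which did not pass, except in a fit of all 18 arrays (unadjusted p = 0.0339). The high arrays were PVN Oil 1 and PVN Oil 3, the pair with Foxa2 at 10.41 and 10.06, while PVN Oil 2 lay among the EB arrays. Without that pair the difference was 0.53, on 1 Oil array, and without PVN Oil 2 it was -3.44 (unadjusted p = 0.000893, adjusted p = 0.157). It was -2.77 (unadjusted p = 0.0413) without PVN EB 3. The mean of the 5 measured midbrain dopamine and mammillary genes (of 7 listed) was 7.44 and 7.32 in PVN Oil 1 and 3, against 5.48 to 5.75 in the PVN EB arrays and 5.51 in PVN Oil 2. The mean of 3 dorsomedial nucleus genes (Npvf, Ppp1r17 and Grp) was 8.62 and 8.49 in that pair. It was 7.16 to 7.41 in the PVN EB arrays and 7.40 in PVN Oil 2. The mean of the 4 lateral hypothalamus genes was 8.20 and 8.42 in that pair. It was 8.42 to 8.72 in the PVN EB arrays and 8.22 in PVN Oil 2. The part of any of these tissues in the Hcrt difference was not tested. The highest ARC value, 10.77, was that of ARC EB 3, which has a Slc6a3 signal of 12.62, whereas ARC EB 2, with the highest Slc6a3 signal, 14.95, had 8.66 for Hcrt, close to the ARC Oil arrays.

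The Hcrt promoter is shown because its gene separated hypothalamus from NTS; it lies at chr10:86191475-86191774 on the minus strand of GRCr8, 250 bases before to 50 bases after the RefSeq start, 5′ to 3′, with the letters TATAAA in capitals.
Hcrt: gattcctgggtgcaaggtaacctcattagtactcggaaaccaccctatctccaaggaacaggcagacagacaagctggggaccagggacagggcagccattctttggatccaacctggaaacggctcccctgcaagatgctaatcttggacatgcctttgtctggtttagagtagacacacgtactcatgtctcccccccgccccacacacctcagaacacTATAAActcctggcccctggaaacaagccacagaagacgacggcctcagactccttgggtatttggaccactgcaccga

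Nts, the precursor of neurotensin, was the gene of this set that set the PVN apart from both other regions. Its log2 signal in the PVN was 11.53, 11.28 and 10.08 with EB, against 9.74, 12.34 and 9.17 with Oil. In the ARC it was 8.77, 8.74 and 9.18 with EB, against 8.96, 9.37 and 8.42 with Oil, and in the NTS it was 9.89, 8.68 and 9.24 with EB, against 8.57, 8.75 and 7.23 with Oil. The ARC arrays spanned 0.95 and the PVN arrays 3.17, and the lowest PVN arrays overlapped the highest ARC and NTS arrays. PVN minus NTS was 1.97 (SE 0.46, adjusted p = 0.00345) and ARC minus PVN was -1.78 (SE 0.46, adjusted p = 0.0124), while ARC minus NTS was 0.18 (95% interval -0.79 to 1.15). On the arrays of 1 treatment, PVN minus NTS was 1.69 with EB (adjusted p = 0.0211) and 2.24 with Oil (adjusted p = 0.0632), and ARC minus PVN was -2.07 with EB (adjusted p = 0.0322) and -1.5 with Oil (adjusted p = 0.226).

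High and low Nts in the PVN arrays went with high and low Oxt. Nts was highest in PVN Oil 2, EB 1 and EB 2, with Oxt at 14.87, 15.78 and 16.10, and lowest in PVN Oil 1 and Oil 3, with Oxt at 6.97 and 6.92, with PVN EB 3 between them (Oxt 12.36). ARC Oil 1, with an Oxt signal of 14.52, had 8.96 for Nts, inside the range of the other ARC arrays. EB minus Oil for Nts in the PVN was 0.55 (SE 0.79), 1.51 (unadjusted p = 0.0121) without PVN Oil 2, and -1.37 without PVN Oil 1 and Oil 3 (1 Oil array left). In the NTS, EB minus Oil was 1.09 (SE 0.46, unadjusted p = 0.0506, adjusted p = 0.934), and 0.61 without NTS Oil 3, the array at 7.23. It passed without NTS EB 2 (1.38, unadjusted p = 0.0317) and without NTS Oil 2 (1.37, unadjusted p = 0.0344), and after array-median centring (1.05, unadjusted p = 0.0401). ARC EB minus Oil was -0.02 (95% interval -0.61 to 0.57).

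Ntsr1, the receptor that carries most of the known neuronal actions of neurotensin, was lower with EB in the PVN. Its log2 signal there was 9.43, 9.22 and 8.94 with EB, against 10.42, 9.82 and 10.46 with Oil, so that no EB array reached the lowest Oil array. The means were 9.20 ± 0.25 with EB and 10.23 ± 0.36 with Oil (SD, n = 3 each). The difference was -1.04 (SE 0.21, 95% interval -1.53 to -0.54), a 2.05-fold lower signal, with a limma unadjusted p of 0.00144, an adjusted p of 0.681 and an exact permutation p of 0.1. Groups that did not overlap were found for 12.4% of all genes in the PVN, and for 3 of the 10 genes there, Ntsr1, Vip and Pmch.

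The 2 highest Ntsr1 signals of the PVN were those of PVN Oil 1 and Oil 3. Without these arrays, left out for their marker signals, the difference was -0.63, given with no test since 1 Oil array is left. It was -0.91 without EB 3, -0.94 without Oil 1 and -0.93 without Oil 3, each under a fold change of 2. With all 18 arrays in 1 fit the SE was 0.51 and the unadjusted p 0.061. High Slc6a3 and high Ntsr1 were found together in PVN Oil 1 and Oil 3 and in 2 ARC arrays. ARC EB 2 and EB 3, the arrays with Slc6a3 at 14.95 and 12.62, had 11.37 and 10.06 for Ntsr1, against 8.28 in ARC EB 1 and 9.31, 8.69 and 8.69 with Oil. Slc6a3 was not high in any NTS array, so the NTS cannot show whether the genes go together. Its highest NTS signal, 7.82, was that of NTS Oil 3 (background median 7.41), which had the lowest Ntsr1 signal of the region, 8.42. PVN Oil 2, with Slc6a3 at 6.50, had 9.82 for Ntsr1. The part of midbrain tissue in the Ntsr1 signal was not tested.

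In the ARC, Ntsr1 was 1.01 higher on the log2 scale with EB (SE 0.69, unadjusted p = 0.182), which did not pass, with a difference of 1.82 (unadjusted p = 0.00351) without ARC EB 1 and -0.62 without ARC EB 2 and EB 3. In the NTS the signals were 9.27, 9.19 and 9.79 with EB, against 9.20, 8.96 and 8.42 with Oil, a difference of 0.56 (SE 0.25, unadjusted p = 0.0603). The EB effect in the PVN minus that in the ARC was -2.05 (SE 0.73, unadjusted p = 0.0127, adjusted p = 0.966), and the tests of EB effects between regions called 0 of 23188 genes each, where an unadjusted p under 0.05 was reached by 5.02% of genes for PVN minus ARC, 3.88% for PVN minus NTS and 6.1% for ARC minus NTS. Between regions Ntsr1 did not differ beyond its spread, with differences of 0.26 for ARC minus NTS, 0.58 for PVN minus NTS and -0.32 for ARC minus PVN. With Oil arrays alone, PVN minus NTS was 1.37 (adjusted p = 0.00877) and ARC minus PVN was -1.34 (adjusted p = 0.0173).

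**Figure D2:**
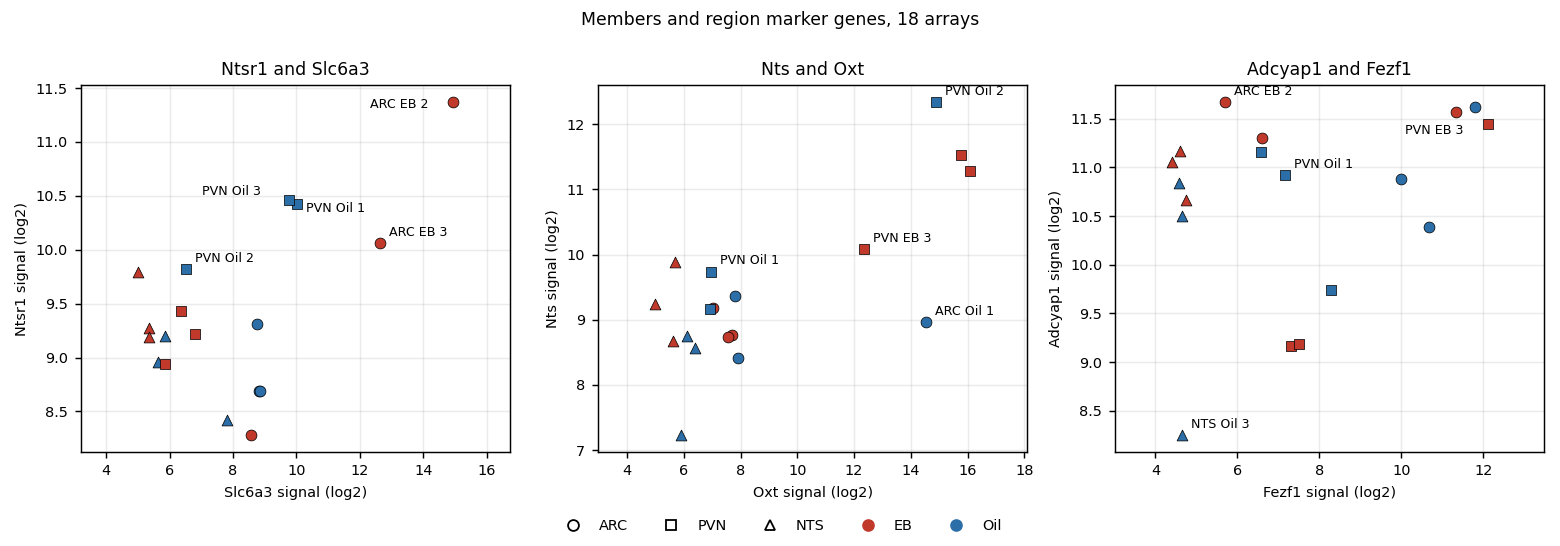
Log2 signal of Ntsr1 against Slc6a3, of Nts against Oxt and of Adcyap1 against Fezf1 in the 18 arrays (circles ARC, squares PVN, triangles NTS, EB red and Oil blue), with some arrays named. The Ntsr1 signal is highest, 11.37, in ARC EB 2, which has the highest Slc6a3 signal, 14.95, and the Nts signal is highest, 12.34, in PVN Oil 2. The pairs of genes were chosen after their values were seen, and the regions are separate clusters, so no pooled correlation is given.

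Ntsr2, the second neurotensin receptor, expressed in astrocytes as well as neurons, was the steadiest of the set. Over all 18 arrays its log2 signal lay between 13.17 and 14.43, and the means were 14.01 ± 0.24 (ARC), 13.88 ± 0.25 (PVN) and 13.57 ± 0.29 (NTS, SD, n = 6 each). ARC minus NTS was 0.44 (SE 0.15, adjusted p = 0.0282), which passed the p threshold at a fold change of 1.35. EB minus Oil for Ntsr2 was 0.25 for the ARC (95% interval -0.15 to 0.66), -0.08 for the PVN (-0.54 to 0.39) and 0.05 for the NTS (-0.48 to 0.58). The mean of 7 astrocyte genes ranged from 13.78 to 14.39 over ARC arrays, 13.48 to 14.30 over PVN arrays and 13.61 to 13.97 over NTS arrays.

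The promoters of the neurotensin precursor and of its receptor Ntsr1 are shown because Nts was called between regions and Ntsr1 with EB in the PVN. Nts lies at chr7:39460839-39461138 on the minus strand and Ntsr1 at chr3:187983528-187983827 on the plus strand of GRCr8. Capitals mark TGACG on either strand (CGTCA on the strand printed where it is read from the other), and in Nts also the AP-1 letters TGANTCA.
Nts: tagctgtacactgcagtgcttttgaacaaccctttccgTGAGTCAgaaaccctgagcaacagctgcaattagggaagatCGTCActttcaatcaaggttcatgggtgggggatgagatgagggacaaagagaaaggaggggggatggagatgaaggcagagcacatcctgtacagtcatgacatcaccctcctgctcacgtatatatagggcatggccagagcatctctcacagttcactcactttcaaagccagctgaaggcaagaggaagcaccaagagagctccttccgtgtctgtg
Ntsr1: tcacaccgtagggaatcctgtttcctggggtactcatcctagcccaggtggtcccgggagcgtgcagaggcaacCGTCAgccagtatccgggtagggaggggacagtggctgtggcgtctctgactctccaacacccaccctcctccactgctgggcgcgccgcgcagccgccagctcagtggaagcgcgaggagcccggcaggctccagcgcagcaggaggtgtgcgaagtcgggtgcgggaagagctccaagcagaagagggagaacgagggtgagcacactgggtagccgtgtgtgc

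Gal, the precursor of galanin, was higher in both hypothalamic regions than in the NTS. Its log2 signal was 8.38, 7.39 and 7.46 with EB, against 7.94, 8.81 and 7.61 with Oil in the ARC, and 8.10, 8.35 and 7.24 with EB, against 8.36, 8.53 and 8.30 with Oil in the PVN. In the NTS it was 7.04, 6.75 and 6.99 with EB, against 7.40, 7.24 and 4.86 with Oil, all below background. Of the ARC arrays 4 and of the PVN arrays 5 were above background. With the background median in place of the NTS signal, Gal was at least 1.39-fold higher in the ARC than in the NTS (fitted difference 1.22, SE 0.37, adjusted p = 0.0143) and at least 1.62-fold higher in the PVN than in the NTS (1.43, SE 0.37, adjusted p = 0.00655). With every value under background raised to it, ARC minus NTS was 0.52 (adjusted p = 0.0599) and PVN minus NTS 0.73, the second under a fold change of 2. Without NTS Oil 3, ARC minus NTS was 0.81, also under a fold change of 2. On the arrays of 1 treatment neither passed, with ARC minus NTS at 0.82 with EB and 1.62 with Oil, and PVN minus NTS at 0.97 with EB and 1.90 with Oil. ARC and PVN did not differ beyond their spread (-0.22, 95% interval -1.0 to 0.57).

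EB minus Oil for Gal was -0.38 (ARC), -0.50 (PVN, SE 0.27, unadjusted p = 0.105) and 0.43 (NTS), the NTS groups both being below background. The low NTS array was Oil 3, at 4.86. Galr1, the receptor through which galanin inhibits neurons, was above background in all arrays, at 10.08, 10.72 and 9.94 with EB against 10.50, 10.15 and 10.19 with Oil in the ARC. It was at 10.84, 10.83 and 10.99 with EB against 10.65, 10.88 and 10.59 with Oil in the PVN. NTS values were 10.58, 10.46 and 10.88 with EB against 10.56, 10.39 and 9.12 with Oil. The groups overlapped in each region, and no comparison of Galr1 passed, the 95% intervals of EB minus Oil being -0.56 to 0.50 (ARC), -0.13 to 0.49 (PVN) and -0.27 to 1.5 (NTS).

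Vip, the precursor of VIP, was at or near background outside 1 array. ARC signals were 4.87, 6.81 and 6.09 with EB, against 10.90, 5.22 and 5.38 with Oil. PVN signals were 5.62, 5.11 and 5.75 with EB, against 6.42, 6.65 and 6.80 with Oil, and NTS signals were 4.71, 5.0 and 4.60 with EB, against 4.84, 4.60 and 5.56 with Oil. Only ARC Oil 1 exceeded background, and the mean of the 6 measured suprachiasmatic genes (of 7 listed) was 8.45 in that array, against 7.41 to 8.15 in the other 5 ARC arrays. ARC Oil 1 also had Six6 at 8.02, the highest of the ARC, and the Oxt and Avp signals given above, and its background median was the lowest of the 18 arrays, 6.74. The part of neighbouring tissue in the Vip signal was not tested.

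The call for Vip in the PVN rests on signals below background in both groups. No EB array reached the lowest Oil array, and the fitted difference was -1.13 (SE 0.20, unadjusted p = 0.000505, adjusted p = 0.681, exact permutation p = 0.1). No fold change is given, since all 6 values were under the background median of their arrays, which ranged from 7.37 to 7.47. Vip was not called with values raised to that median, which leaves nothing of its own signal, nor in a fit of all 18 arrays (unadjusted p = 0.282), and without PVN EB 2 the difference was -0.94. In the ARC, EB minus Oil was -1.24 (SE 1.44), and 0.63 without ARC Oil 1. ARC minus NTS was 1.66 (adjusted p = 0.0716), 0.73 without ARC Oil 1, and past the threshold without ARC Oil 2 (2.15) or ARC Oil 3 (2.11).

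The 2 remaining called precursors with an entry, Gal at chr1:210084523-210084822 on the minus strand and Vip at chr1:44470230-44470529 on the plus strand of GRCr8, are shown with TGACG and TATAAA in capitals.
Gal: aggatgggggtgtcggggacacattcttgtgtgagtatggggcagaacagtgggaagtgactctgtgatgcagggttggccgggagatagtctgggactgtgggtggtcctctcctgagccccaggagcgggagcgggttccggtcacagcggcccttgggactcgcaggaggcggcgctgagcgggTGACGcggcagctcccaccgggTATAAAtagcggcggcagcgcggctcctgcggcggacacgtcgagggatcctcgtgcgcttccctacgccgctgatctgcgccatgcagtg
Vip: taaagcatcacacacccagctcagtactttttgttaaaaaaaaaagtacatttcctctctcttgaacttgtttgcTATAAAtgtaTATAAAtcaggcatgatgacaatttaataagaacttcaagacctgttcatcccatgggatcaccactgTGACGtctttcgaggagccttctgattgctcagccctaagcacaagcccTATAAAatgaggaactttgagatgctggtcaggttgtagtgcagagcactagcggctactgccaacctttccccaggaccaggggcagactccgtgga

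Of the 10 genes, 9 (all but Pmch) matched a promoter of the RefSeq table, and the motifs were sought in 300 bases of each and of 33469 promoters in all. No promoter of the 9 held the palindromic estrogen response element (GGTCA and TGACC with any 3 bases between them), found in 0.0269% of all promoters, or the single arm AGGTCA on either strand, found in 16.2%. The cyclic AMP response element TGACGTCA was in none of the 9 and in 1.83% of all, and its core TGACG on either strand, which every TGACGTCA also holds, was in 4 of the 9 (Gal, Nts, Ntsr1 and Vip) and in 21.2% of all. Nts had the AP-1 letters at position -212 from its start, as did 7.33% of all promoters on either strand. On the gene's own strand, TATAAA was in 4 of the 9, Gal at -41, Hcrt at -29, Vip at -175, -165 and -48 and Adcyap1 at -248, and in 8.8% of all. The start used for Vip and for Adcyap1 lies inside the annotated gene (chr1:44470232-44478561 and chr9:120550236-120569096) and not at its edge. These are matches of letters and not measured binding sites.

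Adcyap1, the precursor of PACAP, was above background in every array, with its lowest signals in the PVN and in 1 NTS array. ARC values were 11.57, 11.67 and 11.30 with EB, against 10.39, 11.62 and 10.88 with Oil. PVN values were 9.17, 9.19 and 11.45 with EB, against 10.92, 9.74 and 11.16 with Oil, and NTS values were 10.66, 11.05 and 11.17 with EB, against 10.50, 10.84 and 8.25 with Oil. The groups overlapped in each region. ARC minus PVN was 0.97 (SE 0.46, adjusted p = 0.145) and ARC minus NTS was 0.83 (adjusted p = 0.155), and neither passed, except ARC minus PVN without PVN EB 3 (1.34, adjusted p = 0.0295).

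In the PVN, Adcyap1 was high in EB 3, the array with Fezf1 at 12.10 and Pomc at 9.47, and low in EB 1 and EB 2, with Fezf1 at 7.30 and 7.51. PVN Oil 1 and Oil 3 were also high for Adcyap1, at 10.92 and 11.16, with Fezf1 at only 7.16 and 6.58, while PVN Oil 2, with Fezf1 at 8.29, had 9.74. EB minus Oil was -0.67 (SE 0.64), and -1.42 (unadjusted p = 0.0079, adjusted p = 0.442) without PVN EB 3. In the NTS the difference was 1.10 (SE 0.63), 0.29 without NTS Oil 3 and 1.58 (unadjusted p = 0.0471) without NTS Oil 2, while in the ARC it was 0.55 (SE 0.30, unadjusted p = 0.104). The mean of 4 ventromedial nucleus genes (Nr5a1, Fezf1, Nkx2-2 and Bdnf) was 9.45 in PVN EB 3, against 7.65 to 8.09 in the other PVN arrays. Of these genes, Nr5a1 was below background in all 6 PVN arrays. Bdnf ranged from 9.62 to 10.41 over the PVN EB arrays and from 10.20 to 11.12 over the PVN Oil arrays. The part of ventromedial tissue in the PVN values was not tested.

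Adcyap1r1, which encodes the PACAP-preferring receptor PAC1, had log2 signals of 11.26, 10.89 and 11.34 with EB, against 12.08, 11.17 and 10.21 with Oil in the ARC. In the PVN they were 11.15, 11.63 and 11.33 with EB, against 11.52, 11.48 and 11.52 with Oil. In the NTS they were 11.11, 11.28 and 11.19 with EB, against 11.04, 10.95 and 9.78 with Oil, so that all EB arrays lay above all Oil arrays, as they did in either direction for 11.2% of all genes in the NTS and for 1 of the 10 genes. The NTS difference was 0.60 (SE 0.33, unadjusted p = 0.107, exact permutation p = 0.1), and 0.20 without NTS Oil 3. In the ARC, where 11.2% of all genes showed such a separation and none of the 10 did, it was 0.01 (95% interval -0.98 to 1.00).

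NTS Oil 3 was the lowest NTS array for 7 of the 10 genes, Gal, Galr1, Nts, Ntsr1, Adcyap1, Adcyap1r1 and Hcrt. It also had the lowest signals in its region of Gcg, Th (7.50, against 10.94 to 12.12 in the other 5) and Hoxb5 (10.81, against 11.45 to 12.35). The mean of 5 general neuron genes ranged from 14.90 to 15.22 over the 6 NTS arrays. Leaving it out brought the NTS differences of these 7 genes to between -0.39 and 0.61.

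**Figure D3:**
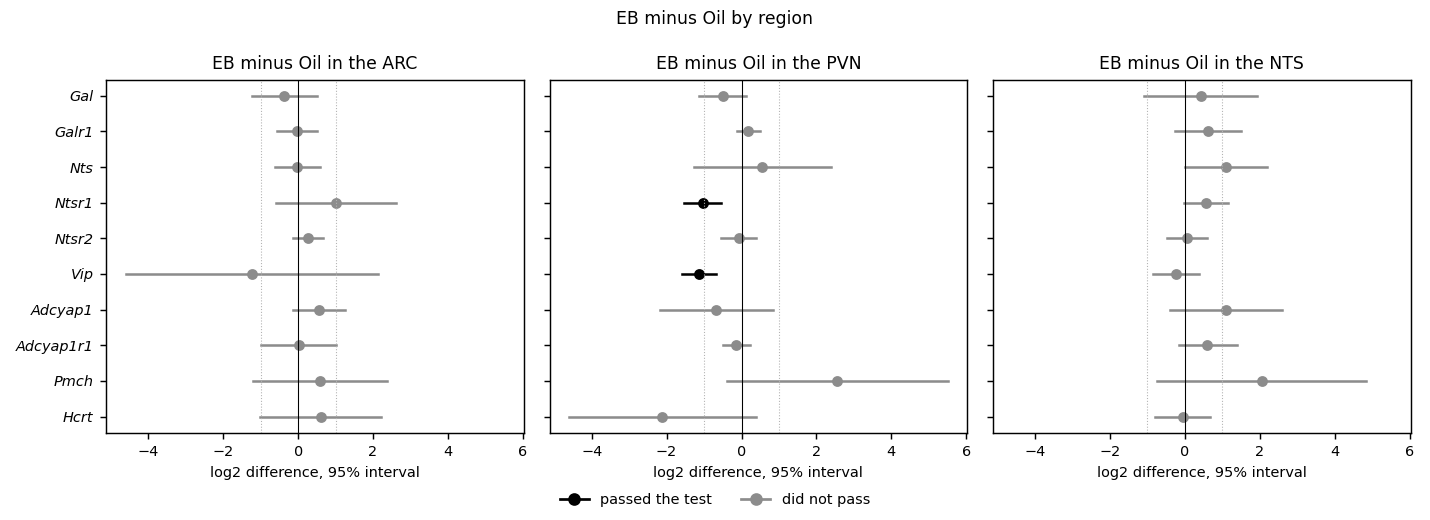
EB minus Oil difference (log2, horizontal axis) of the 10 genes in each region, with 95% intervals from limma; black marks the genes that passed an unadjusted p of 0.05 with a fold change of 2, and dotted lines mark a fold change of 2. Ntsr1 (-1.04) and Vip (-1.13) in the PVN are the genes in black, and the intervals of Vip in the ARC and of Pmch in the PVN are the widest.

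The receptors and relatives of these peptides that are not among the 10 genes gave no EB call. Of 10 such genes (Galr2, Galr3, Galp, Spx, Sort1, Vipr1, Vipr2, Mchr1, Hcrtr1 and Hcrtr2), 0 passed in any region. Galr2, a second galanin receptor, and Galp, a galanin-like peptide of the ARC, were higher in the ARC than in the NTS (2 of the 10 passed), but for both genes all arrays of the 2 regions were below background, except ARC Oil 1 for Galr2. Their fitted differences were 1.38 for Galr2 and 1.22 for Galp, next to 0.85 for the orexin receptor gene Hcrtr2 and -0.61 for the sorting receptor gene Sort1, which binds neurotensin. In PVN minus NTS, 0 of 10 passed, and the widest differences were -0.78 for Vipr2, a receptor of VIP and PACAP, -0.59 for Sort1, 0.57 for Spx and 0.47 for Galr2. In ARC minus PVN, 0 of 10 passed, with 0.91 for Galr2, 0.89 for Galp, 0.40 for Hcrtr2 and 0.40 for Mchr1, the MCH receptor gene.

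**Figure D4:**
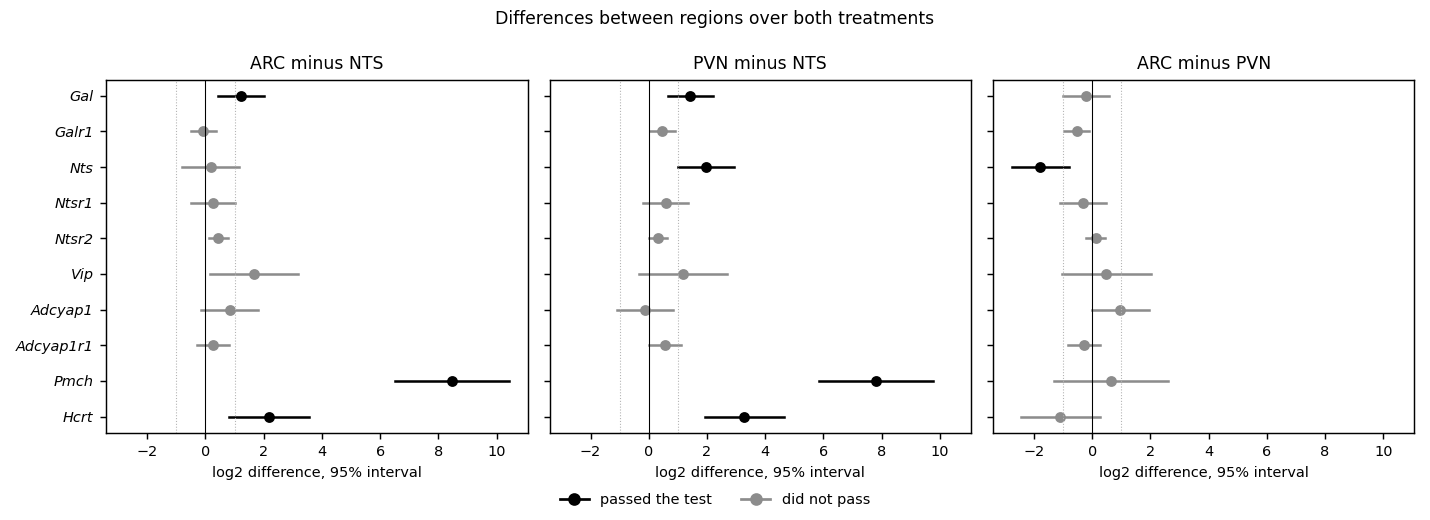
Differences between regions (log2, horizontal axis) of the 10 genes over both treatments, with 95% intervals from limma; black marks genes at an adjusted p under 0.05 with a fold change of 2 or more, and dotted lines mark a fold change of 2. Pmch stands at 8.46 for ARC minus NTS and 7.80 for PVN minus NTS, and Nts at -1.78 for ARC minus PVN.

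Array by array, after the mean of each region was subtracted, the genes of the set followed each other loosely. The highest Pearson correlations over the 18 arrays were 0.60 for Ntsr2 with Hcrt and for Gal with Adcyap1r1, 0.59 for Ntsr2 with Pmch and 0.57 for Galr1 with Adcyap1r1, and the lowest was -0.55 for Nts with Hcrt. Nts with Ntsr1 stood at -0.01, Adcyap1 with Adcyap1r1 at 0.38 and Gal with Galr1 at 0.53. These are descriptions over arrays that share tissue and rats. The genes most like each member by the same measure were Chrna6 (0.89), Syt17 (0.88) and Sertm1 (0.87) for Ntsr1, and Nnat (0.90), Stk36 (0.89) and Tmem164 (0.88) for Gal. For Nts they were Glyr1 (0.85), Etv3 (0.83) and Hp1bp3 (0.83), for Hcrt Uqcr11 (0.84), Hba-a3 (0.83) and Foxa2 (0.83), and for Pmch Lgi4 (0.82), Lrrc63 (0.80) and Sat1 (0.78). The nearest gene was Pals2 (0.88) for Galr1, Mcam (0.88) for Ntsr2, Slc35f6 (0.87) for Vip, Cacna2d1 (0.88) for Adcyap1 and Eral1 (0.84) for Adcyap1r1. By rank (Spearman) these pairs stood at 0.67, 0.86, 0.70, 0.85 and 0.51 in turn.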

How the data were processed

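Labels put 18 samples into 6 groups of 3, and each is counted as a biological replicate. The deposited values are log2 signals per probe set, which the array service of the authors background-adjusted, normalized and log2 transformed. The authors then used the Transcriptome Analysis Console. The 24834 probe sets comprise 23188 for genes and 1646 controls, with 23 for background. The platform's table gave 15049 probe sets a single symbol and 8139 none.

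Each region was fitted with limma 3.58.1 (statmod 1.5.0, R 4.3.3) as EB minus Oil on its 6 arrays. Region differences, EB effects between regions and the average EB effect came from 1 fit of 18 arrays taken as independent, although the methods give 3 rats per treatment, so regions share rats that the labels do not name. Adjustment was by Benjamini-Hochberg over 23188 genes. A gene with a whole group below the background median of its arrays got a fold change as a bound only. Arrays have no read depth, and their number limits precision. The named genes are the 10 members, plus related genes called with EB or among the 4 widest between regions. Members and lists were chosen with earlier results of these data known. Fits were tested on simulated data. Alternatives were median centring, quantile normalization, a filter on dim probe sets, a trended robust prior, values raised to background, replicate blocks, other sample sets and leaving out arrays. Promoters are RefSeq's on GRCr8. Plots were made with matplotlib 3.10.9 in Python 3.11.15.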

Additional observations from a re-analysis of the deposited data

How the results depend on the processing

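Limits on these values are the 3 arrays per group, signals near background for Vip, Gal and Hcrt, and arrays with markers of neighbouring tissue (ARC EB 2, ARC EB 3, ARC Oil 1, PVN Oil 1, PVN Oil 3 and NTS Oil 3, set aside together in a fit chosen after seeing the data, as were the fits without 2 arrays and the averaging of same-numbered arrays). Where a value moved between settings the cause was not tested, beyond fewer arrays or genes in the fit.

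The count of 2 genes called in the PVN with EB became 1 with a filter on dim probe sets (Ntsr1), 1 with values raised to background (Ntsr1), 1 in a fit of all 18 arrays (Hcrt) and 0 at an adjusted p threshold. Without PVN Oil 1 and Oil 3 it was again 2, Vip and Pmch (5.96), but 1 Oil array was left, so the spread came from the EB arrays and the lone array is assumed to vary like them. In the NTS, 1 gene (Nts, 1.05) was called after array-median centring. ARC minus NTS gave 1 gene (Pmch) with values raised to background and 1 (Pmch) on Oil arrays only, PVN minus NTS gave 2 (Nts and Pmch) on EB arrays only, and ARC minus PVN gave 2 (Nts and Ntsr1) without the 6 arrays. The average EB effect called 0 genes with an intensity trend and robust prior. Leaving out 1 array at a time gave 0 to 1 called genes for EB in the ARC, 1 to 4 in the PVN, 0 to 2 in the NTS and 0 to 2 on average, 2 to 4 for ARC minus NTS, 4 to 5 for PVN minus NTS, 1 to 2 for ARC minus PVN, and 0 for EB effects between regions.

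Replicate numbers were tested as pairs. Deviations of EB and Oil arrays with the same number correlated from -0.46 to 0.13, with 1 of 9 above 0.1, and those of regions from -0.11 to 0.42, with 8 of 18 above 0.1, and an array lay closest to its own number in 2 of 18 checks between treatments and 18 of 36 between regions, so the numbers were not taken as pairs. With a replicate block, 4 genes were called in the PVN (Ntsr1, Vip, Pmch and Hcrt), and no other count of members changed.

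Signs turned as follows, most of them for values that never passed. Array-median centring gave 0.01 for Nts with EB in the ARC and -0.04 for Ntsr2 in ARC minus PVN. Values raised to background gave, for EB, 0.05 for Vip in the PVN, 0.01 for Vip and 0.01 for Hcrt in the NTS, and -0.05 for Vip in PVN minus NTS, where every array is below background, so that these are differences of the background medians alone and carry no signal of the gene. Without ARC EB 2 and EB 3 (1 EB array left), EB minus Oil was 0.26 for Gal, -0.62 for Ntsr1, -0.94 for Pmch and -0.79 for Hcrt. Without PVN Oil 1 and Oil 3 it was -1.37 for Nts, 0.31 for Ntsr2, 0.20 for Adcyap1 and 0.53 for Hcrt. Without the 6 arrays, ARC minus NTS was -0.13 for Nts, -0.77 for Ntsr1 and -0.12 for Adcyap1r1, ARC minus PVN was 0.08 for Gal and -0.98 for Vip, and the average EB effect was -0.30 for Nts and -0.23 for Ntsr1. Oil arrays only gave 0.26 for Galr1 in ARC minus NTS, 0.74 for Adcyap1 in PVN minus NTS and -0.05 for Ntsr2 in ARC minus PVN. EB arrays only gave -0.37 for Nts and -0.03 for Adcyap1r1 in ARC minus NTS, -0.22 for Ntsr1 in PVN minus NTS, and 0.71 for Ntsr1, -0.34 for Pmch and 0.27 for Hcrt in ARC minus PVN.

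Leaving out 1 array at a time gave these ranges where a sign turned. For EB in the ARC they were -0.27 to 0.12 for Galr1, -0.27 to 0.21 for Nts, -2.21 to 0.63 for Vip, -0.46 to 0.47 for Adcyap1r1, -0.09 to 1.34 for Pmch and -0.27 to 1.29 for Hcrt. For EB in the PVN they were -0.08 to 1.51 for Nts and -0.27 to 0.05 for Ntsr2. For EB in the NTS they were -0.39 to 0.88 for Gal, -0.11 to 0.26 for Ntsr2, -0.43 to 0.05 for Vip and -0.34 to 0.15 for Hcrt. ARC minus NTS ran from -0.29 to 0.07 for Galr1, -0.06 to 0.34 for Nts and -0.11 to 0.67 for Ntsr1, PVN minus NTS from -0.54 to 0.10 for Adcyap1, ARC minus PVN from -0.68 to 0.09 for Ntsr1, -0.45 to 0.97 for Vip and -0.20 to 1.08 for Pmch, and the average EB effect from -0.07 to 0.45 for Ntsr1.

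Over all genes, 111 were called with EB in the ARC, 68 after the dim filter, 73 with values raised to background and 0 at the adjusted threshold. In the PVN, 77 were called, 36 raised to background, 168 without PVN Oil 1 and Oil 3 and 0 at the adjusted threshold. In the NTS, 18 were called (11 higher and 7 lower, against 11 and 11 after median centring), 10 after the filter, 6 raised to background, 29 in the fit of 18 arrays and 1 at the adjusted threshold. With values raised to background, ARC minus NTS gave 1060 of 1654, PVN minus NTS 795 of 1287 and ARC minus PVN 220 of 516, the last also 227 on EB arrays only. Without the 6 arrays, the average effect called 37 in place of 10, and the differences of EB effects called 1 (PVN minus ARC), 1 (PVN minus NTS) and 3 (ARC minus NTS) in place of 0.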
